A study of Camelina sativa with 159 samples.

Results

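Of 94495 rows, each a predicted transcript, in the leaf RNA count table of Camelina sativa, 244 had a lower value in each of the 4 late-flowering accessions than in any of the other 44 accessions. The members were chosen by that pattern. Counts were summed over the libraries of an accession and divided by the accession's total to give counts per 1000000 counts (CPM), and a row was kept where its mean over the 48 accessions was 1 CPM or more and its highest late value was below its lowest value in the other 44. This held for 247 of the 45785 rows with that mean, a share of 0.539%, against 58 rows that were higher in all 4 late accessions. The 2 rows of SUPPRESSOR OF OVEREXPRESSION OF CONSTANS 1 (SOC1) that the study named and 1 phytoene desaturase row met the rule and were left out of the set. The late against other difference is therefore given as a description, with no test.

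The late accessions were CN 113660, CN 113662, CN 113691 and CN 113692, with a labelled flowering time (FT) of 61.9, 52, 59.4 and 55 days, and the other 44 accessions, 8 with a CAM and 36 with a CN number, flowered at 43 to 47.9 days. The study scored FT in field plots, and the days it prints for CN 113660 differ from the labelled ones. The plants for RNA were all grown in a long-day greenhouse with no treatment. Leaf RNA was taken from these young seedlings once the fourth leaf had expanded. The labels give 158 libraries for these accessions, 11 of them late, and do not say whether the libraries of an accession came from separate plants. The study's methods call replicates biological without naming the libraries, so the p-values below measure the spread between these accessions and libraries. The accessions held 4968195 to 30119735 counts each, and 10 libraries, none of them late, held 123028 counts or fewer. The library codes fall into the series Cs, S001C and S0013. All 11 late libraries are of the series Cs, so an effect of that series and of late flowering cannot be told apart in the full set of libraries. Csa06g036860.1, a chlorophyll a/b-binding protein used as the leaf marker, stood at 1383 to 1959 CPM in the late accessions, within its range of 735 to 2776 CPM over all 48. In whole-leaf RNA, fewer cells of a type and less RNA per cell cannot be told apart.

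C. sativa is an oilseed of the Brassicaceae with a hexaploid genome of 3 closely related sub-genomes, so most genes have near-identical copies on other chromosomes. The change from leaf to flower production follows a rise of FLOWERING LOCUS T signal and of integrators such as SOC1, a MADS-box factor, which cold exposure promotes in many crucifers through loss of the repressor FLOWERING LOCUS C. Flowering genes are expressed in leaves long before the first flower is seen, together with the metabolic and defence genes that make up most of the leaf transcriptome. Few of the 244 rows carry a name in the sources used here. One is RWA3, and 27 belong to the co-expression module that the study called tan, a module it picked because of its relation with FT in these same libraries. Where the counting does not separate them, reads of near-identical copies may be shared, so a level belongs to the row as counted.

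The mean of the late accessions was 5.94% to 83.2% of the mean of the other 44, with a median over members of 56% and quartiles of 37.2% and 68.1%. Over all 45785 rows the median was 96.0%. Most members were thus moderately lower in the late accessions, with 6 members under 10%, 23 under 25%, 99 under 50% and 221 under 75%. Members of low level stood lowest relative to the others. Rows of few counts vary more and need a larger drop to pass the rule, so this order cannot be told apart from the choice of members. The 36 members with a mean under 5 CPM in the other 44 had a median of 31.1%, the 178 members at 5 to 100 CPM one of 58.5%, and the 30 members at 100 CPM or more one of 68.7%. Together the members held 9037, 10142, 9564 and 8763 CPM in CN 113660, CN 113662, CN 113691 and CN 113692, against 12311 to 17175 CPM, with a median of 14639 CPM, in the other 44.

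**Figure D1:**
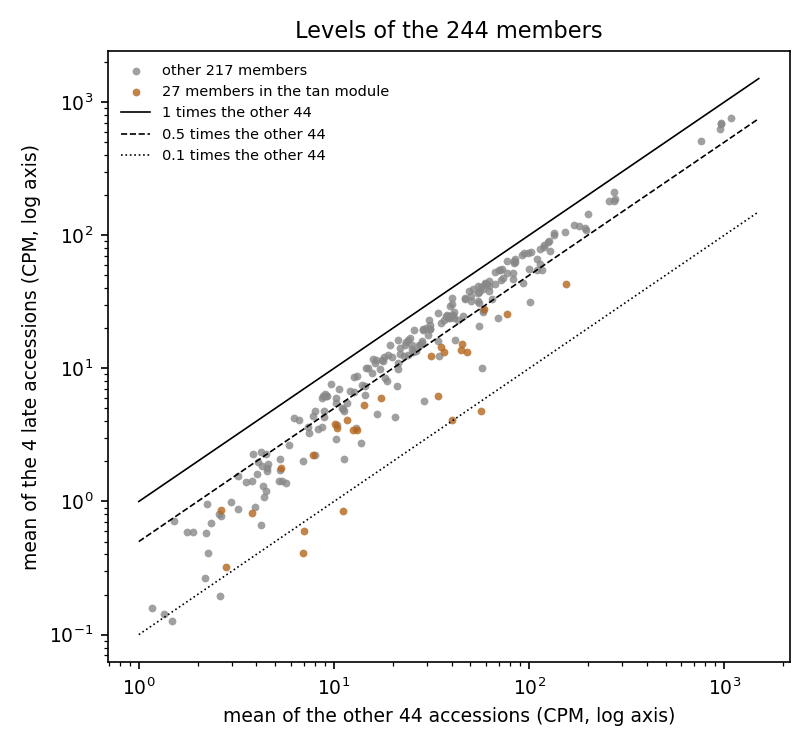
Mean CPM of the 4 late accessions (y axis) against the mean of the other 44 (x axis) for each of the 244 members, both on log axes, with lines at 1, 0.5 and 0.1 times the other 44. All points lie below the line of equality by the rule, and the 27 tan module members (brown) all lie below the line of 0.5. The 30 members at 100 CPM or more have a median of 68.7%. Among them Csa08g007640.1, at 0 to 74.9 CPM in the late accessions against a median of 141 CPM in the others, lies below that line.

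The 10 members with the lowest late level include 6 rows of the tan module. Csa03g062920.1, the lowest, had 0.200, 1.38, 0.0727 and 0 CPM in CN 113660, CN 113662, CN 113691 and CN 113692, against a lowest value of 2.53, a median of 6.91 and a highest of 11.9 CPM in the other 44. Csa05g025680.1 had 0.732, 2.18, 0.293 and 0.201 CPM in these late accessions, against 5.33 to 16.8 CPM with a median of 11.5 CPM in the other 44. In both rows CN 113662 was the highest late accession, and the lowest of the other 44 was at 1.83 and 2.45 times its value. Of its 19 and 30 counts in these rows, 17 and 26 came from library Cs040, and without that library it had 0.198 and 0.396 CPM, no longer the highest late accession in either row. In an accession, 3 counts corresponded to 0.200, 0.218, 0.220 and 0.604 CPM in the order above, so most of these late values lie near what single reads give.

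Csa05g052440.1 and Csa07g017920.1 showed a sharper split among the late accessions. The study's ontology analysis placed both under ADP binding, a term that many plant disease resistance proteins of the nucleotide-binding kind carry. Csa05g052440.1 had 0.0665, 18.2, 0.659 and 0.403 CPM in CN 113660, CN 113662, CN 113691 and CN 113692, against 27.4 to 91.5 CPM (median 54.9 CPM) in the other 44. Csa07g017920.1 had 0.0665, 16.3, 0 and 0 CPM in the same order, against 24.1 to 66.3 CPM (median 37.8 CPM) in the other 44. Both were at or near 0 in 3 late accessions and well above 0, though below all others, in CN 113662, which had 10.7 and 13.2 CPM of them without Cs040. Csa16g018270.1, also in the tan module, had that split too, with 0.0665, 21.7, 2.27 and 0.604 CPM against 24 to 46.8 CPM in the other 44. CN 113662 exceeded the next late accession by more than 2 times in 11 members, CN 113691 in 1 member, and CN 113660 and CN 113692 in 0.

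The other 6 members of the lowest 10 were expressed at a few CPM in any accession. Csa16g032620.1 averaged 0.196 ± 0.183 CPM in the late accessions and 2.61 ± 1.04 CPM in the others (SD, n = 4 and 44). Csa18g005860.1 averaged 0.596 ± 1.01 CPM in the late accessions and 7.01 ± 2.79 CPM in the others. Csa17g042690.1 and Csa04g044410.1 averaged 0.127 and 0.142 CPM in the late accessions, against 1.48 and 1.35 CPM in the others. In both, CN 113662 was the highest late accession. Csa07g017820.1 and Csa06g044980.1 stood at 11.6% and 12.3% of the others. All 6 rows had no read in CN 113692, the accession with the fewest counts, and over all members 10 had none there.

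The members of highest level differed in the evenness of the late accessions. Csa14g025290.1 had 742, 750, 819 and 714 CPM in CN 113660, CN 113662, CN 113691 and CN 113692, against 884 to 1324 CPM (median 1074 CPM) in the other 44. Csa03g012710.1 had 622, 606, 656 and 626 CPM in the same order, against 664 to 1226 CPM (median 950.3 CPM) in the other 44. The late mean was 70.2% of the others in the first row and 66.3% in the second, with a late SD of 44.7 and 20.9 CPM, so the 4 late accessions lay close together just under the others. Csa08g060380.1, Csa20g005330.1 and Csa03g023860.1 stood at 72.2%, 70.8% and 67.2% of the others. RWA3 (Csa06g036850.1), whose Arabidopsis counterpart takes part in the acetylation of cell wall polysaccharides, was among the evenest, with 16.8, 16.0, 16.0 and 16.7 CPM in the late accessions, against 16.9 to 27.2 CPM (median 20.9 CPM) in the others. Over the members, 146 had all 4 late accessions within 1.5 times of each other.

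**Figure D2:**
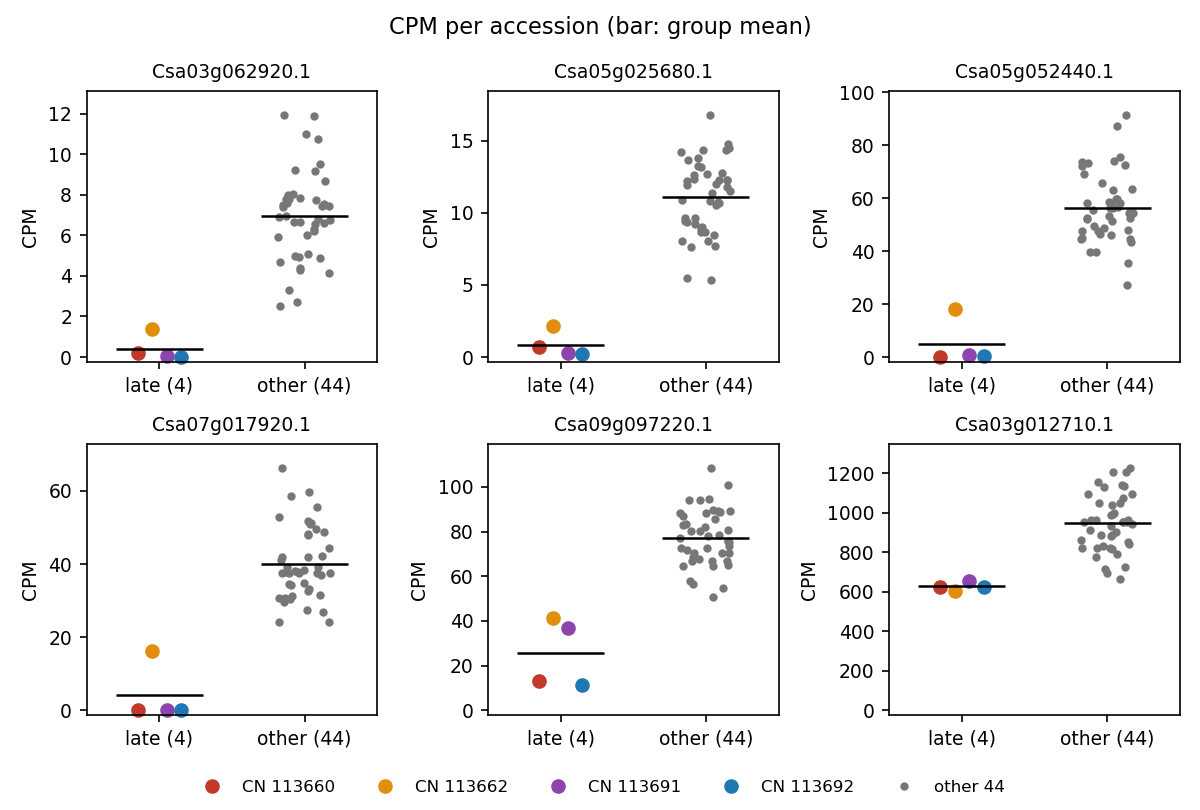
CPM per accession of 6 members, with the late accessions left and the other 44 right in each panel, a point for an accession and a bar for the group mean. CN 113662 (orange) stands above the other late accessions in Csa03g062920.1, Csa05g052440.1 and Csa07g017920.1, the late accessions form 2 pairs in Csa09g097220.1, and they lie together in Csa03g012710.1.

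The late accessions did not share the same rank across the members. CN 113662, which flowered first among them, was the highest of the 4 in 138 members (56.6%), against 29.7% over all rows. CN 113691 was the highest in 52 members, CN 113660 in 31 and CN 113692 in 23. CN 113692 was the lowest in 109 members (44.7%), against 26.1% over all rows, followed by CN 113660 in 78, CN 113691 in 37 and CN 113662 in 20. Relative to the median of the other 44, the median member stood at 56.1% in CN 113660, 64.0% in CN 113662, 58.6% in CN 113691 and 56.5% in CN 113692, where all rows had medians of 94.6%, 96.0%, 95.7% and 98.2%.

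Single libraries carried part of these differences. Library Cs040 of CN 113662 had a median member level of 75.1% of the median of the other 44, against 49.1% in Cs035 and 63.7% in Cs147 of the same accession and 53% to 62.1% in the 8 libraries of the remaining late accessions. Csa05g052440.1 had 38.7 CPM in Cs040, 2.72 CPM in Cs035 and 14.6 CPM in Cs147. Csa05g025680.1 had 7.09 CPM in Cs040, 0.302 CPM in Cs035 and 0.442 CPM in Cs147. Cs040 was thus the highest of these 3 libraries in both rows, and it was the highest of the 11 late libraries in 100 of the members. No member separated every late library from every one of the 137 other libraries with at least 200000 counts, and the number of such libraries below the highest late library ranged from 4, in Csa12g009950.1, to 133, with a median of 36.5. Without Cs040 the rule gave 297 rows in place of 244, without CN 113662 as a whole 724 rows and without CN 113691 377 rows.

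**Figure D3:**
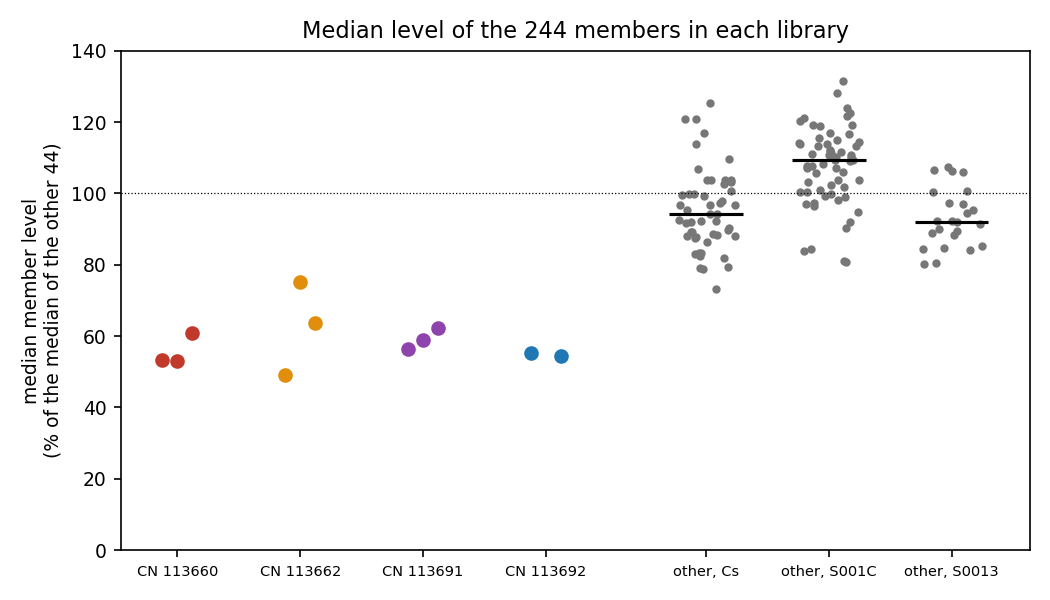
Median over the 244 members of their level in a library, as a percentage of the median of the other 44 accessions, for each library of at least 200000 counts, with the 11 late libraries left and the others right by code series (bar: median). The late libraries lie at 49.1% to 75.1%, the others at 73.3% to 131%, and Cs040 of CN 113662 is the single late library within the range of the others.

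Where the members lie was read from their IDs, which number the genes along the 20 chromosomes of the reference. Every chromosome held members, most per expressed row on chromosome 3 (22 of 2475 rows, 0.889%), chromosome 16 (19 of 2308 rows, 0.823%) and chromosome 9 (21 of 2614 rows, 0.803%), and fewest on chromosome 1 (2 of 1932 rows, 0.104%). Only 3 pairs of members were direct neighbours among the expressed rows, namely Csa05g025680.1 with Csa05g025690.1, Csa05g089330.1 with Csa05g089340.1, and Csa09g097200.1 with Csa09g097220.1. The first pair differed in its late level, with 7.67% of the others for Csa05g025680.1 and 55.7% for Csa05g025690.1, where the second pair was alike at 57.7% and 61.5%. The 2304 expressed rows within 5 rows of a member had a median of 94.7%, against 96.0% over all rows. The neighbours of members thus had levels near those of all rows.

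The end of chromosome 9 was different, and was singled out after its values were seen. The chromosomes were divided into 1801 windows of 25 consecutive expressed rows, and the median level in each window was taken as a percentage of the median of the other 44. In 7 consecutive windows, from Csa09g095230.1 to Csa09g098910.1, the medians were 26.6% to 59.8% in CN 113660 and 36.8% to 56.7% in CN 113692, whereas CN 113662 and CN 113691 stood at 82.0% to 105% and at 82.6% to 95.1%. Over the 175 rows the medians were 43.3% in CN 113660, 90.2% in CN 113662, 87.6% in CN 113691 and 50.9% in CN 113692, against 89.5% to 115% in the other 44. Of these rows, 104 were under 50% of the median of the others in CN 113660 and 85 in CN 113692, against 0 to 22 in any of the other 44. No earlier accession had a median under 60% in these windows.

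Of the 175 rows 7 were members (4%). Csa09g097200.1 had 0.399, 6.53, 6.23 and 0.604 CPM in CN 113660, CN 113662, CN 113691 and CN 113692, against 8.99 to 18.6 CPM (median 12.9 CPM) in the other 44. Csa09g097220.1 next to it had 13, 41.5, 36.8 and 11.5 CPM in the same order, against 50.9 to 109 CPM (median 76.4 CPM) in the other 44. In both, CN 113662 and CN 113691 stood at 48.1% to 54.4% of the median of the others, and CN 113660 and CN 113692 at 3.10% to 17.0%. Csa09g097250.1, Csa09g098250.1, Csa09g098100.1 and Csa09g096850.1 had the same 2 pairs, with CN 113660 and CN 113692 at 15.2% to 30.9% and CN 113662 and CN 113691 at 37.3% to 65.9%. Csa09g096260.1, at the start of the stretch, did not, with 37.7% to 52.2% in all 4. The pairs are of accession sums, and single libraries departed from them. Csa09g097220.1 had 15.5 CPM in Cs019 of CN 113691, against 46.5 CPM in Cs010 and 41.5 CPM in Cs030. It had 23.3 CPM in Cs147 of CN 113662, against 52.2 CPM in Cs035 and 65.7 CPM in Cs040. In CN 113692 it had 8.33 CPM in Cs007 and 32.5 CPM in Cs008. Csa09g097200.1 was likewise low in Cs019 and Cs147, at 2.50 and 2.36 CPM. The remaining 237 members had a median of 56.5%.

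Libraries of an accession did not always share such a stretch. On chromosome 9, the 3 libraries of CN 113660 had medians of 38.8%, 39.9% and 44.1% over the 175 rows, but the libraries of CN 113692 had 41.9% in Cs007 and 91.8% in Cs008, which held 646716 counts. Csa09g097250.1 had 1.16 CPM in Cs007 and 13.9 CPM in Cs008. Both libraries had 0 CPM of Csa08g007640.1, a member with 17.2 to 118 CPM in the other late libraries, and the medians of a stretch of 25 rows on chromosome 12 were 45.2% and 46.8% in them, against 84.1% to 108% in the other 9 late libraries. At the start of chromosome 14, 25 rows from Csa14g001130.1 to Csa14g001560.1 had a median of 0% in libraries Cs010 and Cs019 of CN 113691 and 45.3% in its library Cs030, against 91.0% to 114% in the other late libraries and 76.9% to 123% in the earlier ones. A member lies in this stretch, Csa14g001340.1, with 0.342, 1.11 and 51.9 CPM in the 3 libraries of CN 113691, against 126 to 150 CPM in the other late accessions and a median of 195 CPM in the other 44. A stretch of 25 rows on chromosome 15 was under 60% in CN 113660 and held Csa15g005910.1. The stretches on chromosomes 12, 14 and 15 were also singled out after their values were seen. In all, 9 members (3.69%) lay in a window under 60% in a late accession, against 0.546% of the expressed rows, and 7 of them were those of chromosome 9. Members and windows were both picked for low late values, so a higher share among members follows from the choice.

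Such windows were not particular to the late accessions. Under 60% were 8 windows in CN 113660, 8 in CN 113692, 1 in CN 113691 and 0 in CN 113662, and 26 over 15 of the other 44 accessions, with at most 4 in any of them.

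Among the earlier accessions, a few stood nearest to the late ones. CN 113672 was the lowest of the 44 in 49 members (20.1%), against 6.19% over all rows, CN 101990 in 26 (10.7%, against 5.82%), CN 113694 in 25 (10.2%, against 5.26%) and CN 113717 in 19 (7.79%, against 4%). Their median member levels were 82.0%, 87.1%, 88.7% and 86.7% of the median of the 44, where all rows stood at 92.5%, 91.7%, 94.7% and 93.7%, and they flowered at 46.3, 46.9, 47.1 and 46.3 days. In CN 113672 the median member level was 78.9% in library Cs053, 81.0% in S001C2D and 83.8% in S001C24. It was 111% in S001C1C, which held 787900 counts. In single rows the libraries differed more, and S001C2D had 0 CPM of Csa05g025680.1 and 0.355 CPM of Csa03g062920.1. The other libraries of CN 113672 had 6.48 to 10.6 CPM and 2.81 to 10.2 CPM of these rows. In Csa07g017920.1 S001C2D had 35.5 CPM, against 23.1 to 57.1 CPM, so it was not low in each of the rows. Across the 44, the mean pairwise Pearson r of the members, on log2(CPM + 1) values, was 0.23, against 0.036 over all rows, which describes points that share library series and depth.

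Whether the members also followed FT where the rule had not looked was asked within the 44 earlier accessions, of which the rule had used only the lowest value. No member passed the quasi-likelihood test of edgeR at an adjusted p under 0.05, and the lowest adjusted p was 0.118. Over all 50816 rows tested, 0.0216% were called higher with FT and 0% lower. At an unadjusted p under 0.05, 43 members (17.6%) were lower with later FT, against 4.67% of all rows, and 3 (1.23%) were higher, against 8.01% of all rows. The slope was negative in 179 members (73.4%), against 52.8% of all rows, with medians of −0.02 and −0.003 on the log2 scale per day. The lowest p was that of Csa04g028830.1 of the tan module, with a slope of −0.15 ± 0.04 (SE) on the log2 scale per day. These members share libraries and move together across the 44, so their number is not a count of independent results.

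The library series was compared within the earlier accessions, in the 33 that had both Cs and S001C libraries, with the accession as a block. The sums per accession and series that entered the test held as few as 3004 counts. In 30 of the 33 accessions both sides held at least 200000. By edgeR's quasi-likelihood test, 51 members (20.9%) were lower and 3 members (1.23%) higher in Cs libraries at an adjusted p under 0.05, against 7.79% lower and 8.57% higher over all 50935 rows. Of the 27 tan module members 13 were lower and 0 higher. Csa02g070220.1 had the strongest difference by p, with 8.94 ± 4.80 CPM in Cs libraries and 18.3 ± 10.5 CPM in S001C libraries (SD, n = 30 accessions with at least 200000 counts on both sides), and was lower in Cs in 26 of these 30, with a log2 difference of −0.84 ± 0.13 (SE, edgeR adjusted p = 0.000136). Csa05g003630.1 was lower in Cs by −0.43 ± 0.08 on the log2 scale (edgeR adjusted p = 0.000332), Csa18g035660.1 by −0.68 ± 0.13 (0.000615) and Csa16g018270.1 by −0.39 ± 0.08 (0.00108). Csa14g007940.1, Csa13g001980.1 and Csa03g012710.1 were the 3 members higher in Cs, by 0.30, 0.24 and 0.23 on the log2 scale.

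The log2 differences of the 51 members lower in Cs were −0.84 to −0.16. With Cs libraries alone on both sides, in the 4 late and 34 other accessions, the late mean was at a median of 60.7% of the others with a range of 7% to 86.9%, where all rows had a median of 100.3%. The late values are here those that chose the members and the other values a subset of them, so this too is a description. The groups then overlapped in most members, and 31 of the 244 had every late accession below every other, where the rule applied anew gave 0.0996% of the 45168 rows with that mean. With the Cs libraries of the others left out instead, in 41 other accessions with at least 200000 counts, the median was 54.1% and 117 members had that separation, where the rule gave 0.38% of 46034 rows. Both settings rest on fewer libraries per accession than the rule, with as few as 1825447 counts for an accession in the first. Csa03g062920.1, Csa05g025680.1, Csa05g052440.1 and Csa09g097220.1 were among the 31, at 7%, 7.44%, 10.02% and 38.8%, and Csa07g017920.1, at 12.2%, was not. Csa02g037170.1 stood at 16.2% with Cs libraries alone and 15.7% with all libraries, Csa02g070220.1 at 29.1% and 19.9%, and Csa08g052620.1 at 83.6% and 64.5%.

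**Figure D4:**
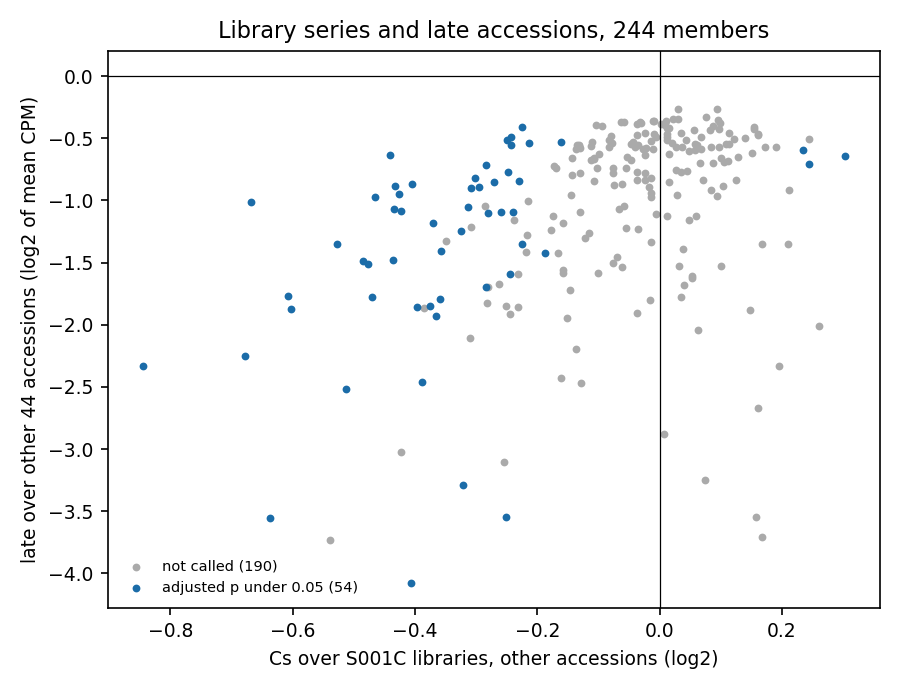
Log2 ratio of the mean of the 4 late over the other 44 accessions (y axis) against the log2 difference of Cs over S001C libraries within the earlier accessions (x axis) for the 244 members, with the 54 called members in blue. Of the called members 51 lie left of 0 and 3 right of it, and all points lie below 0 on the y axis by the rule.

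The code numbers within the series Cs also moved with the members. Of the 11 late libraries, 10 have codes from Cs007 to Cs050 and the remaining one is Cs147. Among the other Cs libraries of at least 200000 counts, the 7 with codes up to Cs062 had median member levels of 73.3% to 83.2%, and the 44 with later codes 81.8% to 125%. Over all rows the same libraries had medians of 85.8% to 94.6% and of 84.4% to 111%. Spearman's rho of the code number with the median level was 0.64 for the members and 0.43 for all rows, so part of the shift was shared by all rows. What the code numbers stand for is not given in the sources used here, and their part in the late difference was not tested.

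Accessions with CAM and CN numbers, a contrast that the rule did not use, were compared within the 44. No member passed edgeR's quasi-likelihood test, with a lowest adjusted p of 0.0897 for Csa18g024510.1, against 0.0396% of 50523 rows higher and 0.00396% lower in CAM accessions. At an unadjusted p under 0.05 there were 38 members (15.6%), against 14.2% of all rows.

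The tan module shares 27 members with the set, which is 11.1% of the members and 16.5% of its 164 rows. These 27 had a median late level of 30.8% of the others with a range of 5.94% to 47.5%, against 59.8% with a range of 7.51% to 83.2% in the other 217 members. Since the study formed and picked the module on these libraries, its overlap with the set is not independent of the late values. A list of 11 flowering rows named by the study, which it likewise picked on these samples, had 10 rows with a lower mean in the late accessions and a median of 27%. Of these 11 rows only the 2 of SOC1 met the rule. They had 0.200, 5.3, 0.952 and 0.403 CPM (Csa04g063650.1) and 5.66, 11.4, 5.64 and 7.85 CPM (Csa06g052060.1) in CN 113660, CN 113662, CN 113691 and CN 113692, against 8.49 to 30.8 CPM and 17.9 to 113 CPM in the other 44. The copies of AGL19, a MADS-box factor, missed it through CN 113662 alone, which had 6.97 CPM of Csa10g020140.1 where the lowest of the other 44 had 6.43 CPM. None of the 11 was called for FT within the 44, and 5 were called lower in Cs libraries, against 7.79% of all rows. In the study's list of genes near SNPs associated with FT, 2 of the 20 expressed rows met the rule, against 0.539% of all expressed rows. They were RWA3 and the phytoene desaturase row, and the median of the list was 99.2%. The study picked these SNPs by FT in these same accessions, so this list too is not independent of the late accessions.

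The edges of the rule were narrow. The members just inside it were Csa17g007260.1, with a highest late value of 9.597 CPM against a lowest other value of 9.605 CPM, Csa20g032030.1 with 10.67 against 10.68 CPM, and Csa20g005330.1 with 755.75 against 756.74 CPM. Just outside were Csa16g023530.1 with 4.982 against 4.980 CPM, Csa07g046340.1 with 47.98 against 47.95 CPM and Csa20g052790.1 with 34.19 against 34.15 CPM. The median member had its lowest other value at 1.05 times its highest late value, 75 members reached 1.1 times and 8 reached 1.5 times. At the level limit, Csa10g012320.1, Csa04g044410.1 and Csa17g042690.1 had means of 1.08, 1.25 and 1.37 CPM over the 48 accessions, and Csa05g085770.1, at 0.898 CPM with no read in any late accession, lay below it.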

How the data were processed

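Leaf RNA of 48 C. sativa accessions was sequenced by the authors as paired-end TruSeq libraries. Per the labels and methods, the authors trimmed reads with Trimmomatic 0.32, aligned them with STAR 2.7.10a and counted reads per row with featureCounts 2.0.1. The deposited values are raw counts. Strand and multi-mapping settings are not given in the sources used here. Library Licalla, of another genotype, was kept out of the rule. Counts were summed per accession, scaled to CPM, and the rule applied (mean CPM at least 1, 3 rows left out). Slopes with FT, Cs against S001C libraries and CAM against CN accessions were fitted on all rows within the earlier accessions with edgeR 4.0.16 (quasi-likelihood, TMM, filterByExpr, Benjamini-Hochberg adjustment), and with DESeq2 1.42.0 as an alternative. The fits were tested on simulated data.

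The members and lists were chosen with earlier results of these data known. Named rows were the annotated members, the 10 lowest by late over other mean, the 5 of highest level, 3 on each side of the margin, 3 nearest the minimum mean, the 10 called members of lowest p and direct neighbours. Other rows named were chosen after their values were seen. Floors of 3 counts cover counting error only, whereas the SDs are taken over accessions and the SEs come from the edgeR fits. Coordinates and gene names beyond those above were not used here, since no ID matched the RefSeq gene table.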

Additional observations from a re-analysis of the deposited data

Results flagged for a closer look

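Of 34 named members, 6 had 1 late accession that stood far from the other 3, by Dixon's ratio at the 95% level. Chance passes that level in about 1 of 20 groups that were not picked by their values. The named members include the 10 lowest by late over other mean, where late values near 0 can set a single higher accession apart. The 6 are therefore a description, and no excess over chance can be read from them. In all 6 the accession that stood apart was CN 113662, and it was the highest of the 4. It had 1.38 CPM of Csa03g062920.1, 18.2 CPM of Csa05g052440.1, 16.3 CPM of Csa07g017920.1, 21.7 CPM of Csa16g018270.1, 0.508 CPM of Csa17g042690.1 and 2.11 CPM of Csa18g005860.1. Without library Cs040, an alternative chosen after seeing the data, it had 0.198, 10.7, 13.2, 18.7, 0.495 and 2.18 CPM in the same order, and it still stood far from the other 3 in all of these rows except Csa03g062920.1, where CN 113660 had 0.200 CPM.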

How the results depend on the processing

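The set rests on the accession with the value nearest to the others. Leaving out each late accession in turn gave 321 to 724 rows, and leaving out each of the 158 libraries gave 164 to 297. With Cs libraries only, 43 rows met the rule, 31 of them members. A margin of 1.5 left 8 members and a margin of 2 left 2, and 0 rows had every late library below every other. Against the 34 accessions with Cs libraries, chosen after seeing the data, 367 rows met it, and against the others without their Cs libraries 33, or 172 without sums under 200000 counts (Cs only so restricted gave 43). TMM and DESeq2 scaling gave 207 and 178 rows, 178 and 162 of them members. Of 340 late over other ratios of 34 named members under 10 settings, 326 moved by less than 1 SD and 0 passed 1. The settings reuse the late counts that chose these members, so ratios under 1 follow largely from the choice.

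For FT, DESeq2 and no filter each called 1 member, Csa04g028830.1, and over all rows 149 and 687 in place of 11. Without CN 113690 and CAM 219, the 2 accessions farthest from the median FT (CAM 275 tied with CAM 219 and was kept), 0 rows were called, with Cs libraries only 27. For Cs against S001C, DESeq2 called 159 members (1 higher) and 17398 rows in place of 8332, with the median of all rows at −0.20 on the log2 scale, and Cs against S0013, in 2 accessions, called 0 members and 240 rows, where Csa02g070220.1 and Csa11g099070.1 were higher in Cs (0.46 and 0.29 on the log2 scale). For CAM against CN, DESeq2 called 3 members and 210 rows, no filter 2 and 231, and the Cs share as covariate 7 rows, in place of 0 and 22. The cause was not tested. Low counts limit members of few CPM, above all in CN 113692.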

Other observations

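Licalla, a genotype outside the 48 accessions with 1 library of 8286624 counts, entered no comparison. It lay below all 44 earlier accessions in 52 members (21.3%), against 8.84% of all expressed rows, above all of them in 0, and at or below the highest late value in 35. Its median member stood at 87.7% of the median of the 44, and its median row at 90.2%. Of the 10 members with the lowest late level, Licalla was within the range of the 44 or above it in 7, with 41 CPM of Csa05g052440.1, 5.67 CPM of Csa05g025680.1 and 4.10 CPM of Csa03g062920.1. It was below them in Csa16g032620.1 (0.121 CPM), Csa07g017920.1 (21.1 CPM) and Csa06g044980.1 (0.724 CPM).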
